A study of Mus musculus with 8 samples.

Results

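The early response of mouse pre-iPSCs to vitamin C was read from 4 of the 8 arrays in the series, those of days 3 and 4. They were chosen by their titles: 1 array with and 1 without vitamin C on each of these days, paired by day. All cells were of the line labelled MaF pre-iPSC9P2, kept on a feeder layer in medium for mouse embryonic stem cells, which was renewed each day. The labels name 1 line, so the results describe a single clone. The medium of the treated cells held vitamin C at 50 µg/ml from day 2 onwards, so the early arrays were taken 1 and 2 days after its addition, and the untreated cells received the same medium without it. The other 4 arrays, of days 5 and 6, served to follow the early genes later and to estimate the spread. The sources used here give neither the reprogramming vectors nor the somatic cell of origin nor the source animals. Cells were trypsinized, feeder cells were eliminated, and 100 ng of total RNA per array was labelled. All 19938 genes with 1 symbol were tested, each by 1 probe set.

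A pre-iPSC is a cell in which reprogramming of a somatic cell towards an induced pluripotent stem cell has begun and stalled: it grows as a colony and has lost part of its somatic programme, but its own pluripotency network is not fully active. Vitamin C (ascorbate) keeps the iron of a family of dioxygenases in its active form. The family includes the Tet enzymes that oxidise methylated DNA, the Jumonji histone demethylases, the prolyl hydroxylases that mark hypoxia-inducible factor for destruction, and the prolyl and lysyl hydroxylases that modify collagen. The comparison asks which genes differ first when vitamin C is given to such stalled cells.

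Each treatment had 1 array a day, and so no single day can be tested from its own arrays. Nothing in the labels tells whether cultures were independent, and the p-values reflect array-to-array spread that may be technical. An exact permutation of 2 against 2 arrays could not fall below a two-sided p of 0.333. Tests were therefore made with limma over all genes, with day as a factor and separate vitamin C terms for days 3 and 4 and for days 5 and 6. Values are log2 RMA values, so that a difference of 1 is 2-fold. Array medians lay between 4.33 and 4.40 and any pair of arrays correlated over probe sets with 0.977 to 0.994. As a check of the label, Pou5f1, the pluripotency factor Oct4, read 12.11 and 12.09 without and 12.05 and 12.02 with vitamin C on days 3 and 4. Pou5f1 is also a reprogramming factor and the vectors are not given, so this reading may not be of the cells' own gene. On the untreated array of day 3, Zfp42 (Rex1) at 2.96 lay under the 3.19 that bounds the means of the dimmest 25% of genes, while the fibroblast collagen gene Col1a1 read 10.22.

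Over days 3 and 4, 17 of the 19938 genes passed an adjusted p of 0.05, which is 0.0853% of those tested, 12 of them higher (0.0602%) and 5 lower (0.0251%) with vitamin C. The pluripotency genes Dppa5a and Dppa2 and the germ cell gene Morc1 had the largest rises, and the genes that fell were Ifit1, P4ha2, Lox, Cd53 and Med4. The difference of the called genes ranged from 1.03 to 3.35 upwards and from 1.18 to 1.71 downwards in size on the log2 scale. At an unadjusted p of 0.05, 1451 genes were higher (7.28%) and 1447 lower (7.26%), 14.5% of all. The count depended on the fit. The 4 early arrays alone called 111 genes (0.557%), 51 higher (0.256%) and 60 lower (0.301%), and limma with a mean-variance trend and robust spread called 395 (1.98%), 132 higher (0.662%) and 263 lower (1.32%). All 17 genes were among both. Without day 3 the count was 7, all higher, and without day 4 it was 0 (0.0%), with 2330 genes at an unadjusted p of 0.05. With day left out as a block, 5 passed.

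**Figure D1:**
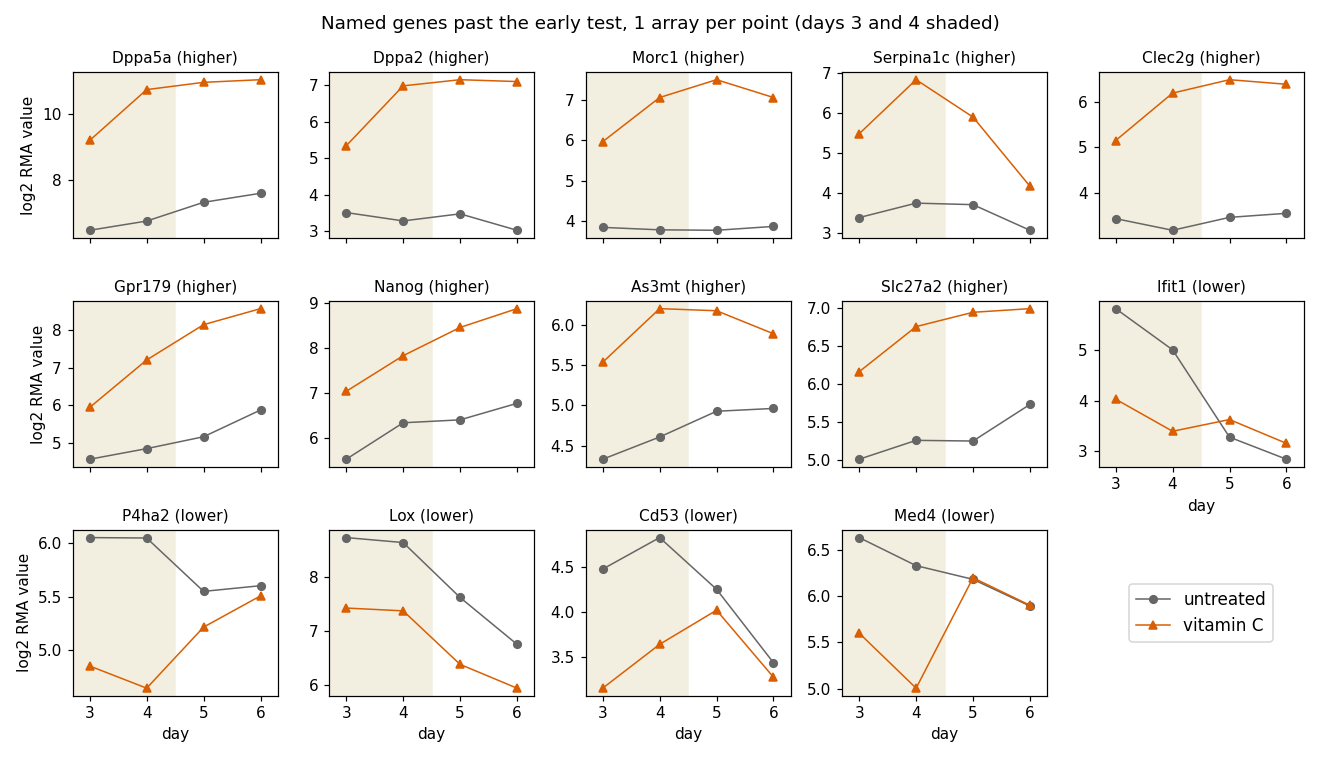
Log2 RMA values on days 3 to 6 of the 14 named genes that passed the early test, 1 array per point, with grey circles for untreated cells and orange triangles for vitamin C (each panel has its own vertical axis, which does not start at 0). In the shaded days every vitamin C point lies above both untreated points for the 9 genes called higher and below both for the 5 called lower. These genes were chosen by the test on the same arrays, so this follows largely from the choice. Of all genes, 22.2% lie above and 20.7% below in this way.

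Among the genes that rose, the largest difference was that of Dppa5a, an RNA-binding protein of pluripotent cells. It read 6.48 on day 3 and 6.75 on day 4 without vitamin C, and 9.20 and 10.73 with it, which gave a difference of 3.35 ± 0.26 (moderated SE, n = 2 days; limma adjusted p = 0.00655), or 10.2-fold. Both treated arrays lay above both untreated ones, and the treated level was higher on day 4 than on day 3. Dppa2, a DNA-binding protein of the early embryo, read 3.51 and 3.28 untreated and 5.34 and 6.99 treated, a difference of 2.77 ± 0.36 (limma adjusted p = 0.0493). This call was near the threshold, because the differences of 1.83 on day 3 and 3.71 on day 4 lay far apart. Nanog, a core factor of the pluripotency network, read 5.53 and 6.34 untreated and 7.04 and 7.83 treated. It was 2.83-fold higher (moderated SE 0.13 on the log2 scale, limma adjusted p = 0.0113), with nearly the same log2 difference on each day, 1.51 and 1.49, while its untreated level itself was higher on day 4 than on day 3.

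Morc1, an ATPase needed to silence transposons in male germ cells, read 3.84 and 3.78 untreated and 5.97 and 7.06 treated, 6.52-fold higher (moderated SE 0.26 on the log2 scale, limma adjusted p = 0.0153). The untreated arrays were close to each other and both treated arrays stood clear of them. Gpr179, an orphan receptor known from retinal bipolar cells, read 4.56 and 4.84 untreated and 5.94 and 7.21 treated, 1.88 ± 0.22 higher (adjusted p = 0.0351). Clec2g, a C-type lectin, read 3.44 and 3.18 untreated against 5.15 and 6.19 treated, 2.36 ± 0.26 higher (adjusted p = 0.0286). Serpina1c, an alpha-1 antitrypsin gene, read 3.38 and 3.74 untreated against 5.48 and 6.84 treated, 2.60 ± 0.29 higher (adjusted p = 0.0286). Clec2g and Serpina1c belong to families of close copies, so that a reading of a single member is uncertain, and the same holds for Dppa5a.

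Genes of metabolism made up the rest of the named rises. As3mt, which methylates arsenic, read 4.33 and 4.61 untreated and 5.54 and 6.20 treated, 1.40 ± 0.16 higher (limma adjusted p = 0.0308). Slc27a2, a fatty acid transporter and acyl-CoA synthetase, read 5.02 and 5.26 untreated and 6.17 and 6.76 treated, 1.32 ± 0.16 higher (adjusted p = 0.0396). In both genes the treated arrays lay above the untreated ones on either day. The other 3 calls were outside the rule for names and were chosen after their values were seen: Gm6083, a predicted gene, was higher by 2.42 ± 0.14, the olfactory receptor Olfr248 by 1.33 ± 0.16 and the clone-named BC061237 by 1.03 ± 0.13. Olfr248 read no more than 3.22 on any early array, near the limit for dim genes, and BC061237 read 2.18, 3.17, 2.20 and 3.26, under it on 3 of 4. Neither is tested once the dimmest genes are left out, so their differences rest on readings in the dim range. Day 4 differences exceeded day 3 differences in 10 of the 12 genes called higher.

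In this fit the genes that fell were fewer, and their differences smaller, than those that rose, although the 4-array fit and the trend and robust fit called more lower than higher genes. Ifit1, an interferon-induced protein that binds viral RNA, read 5.83 on day 3 and 5.01 on day 4 without vitamin C, and 4.03 and 3.39 with it, 1.71 ± 0.14 lower (limma adjusted p = 0.00655), or 3.27-fold. P4ha2, a catalytic subunit of the collagen prolyl 4-hydroxylase that itself uses ascorbate, read 6.05 on both untreated arrays and 4.85 and 4.65 on the treated ones, 1.30 ± 0.14 lower (adjusted p = 0.0286). Lox, the lysyl oxidase that cross-links collagen and elastin, read 8.73 and 8.64 untreated and 7.43 and 7.37 treated, 1.29 ± 0.15 lower (adjusted p = 0.0351). In these 3 genes the arrays of a treatment were closer to each other than to the other treatment. Cd53, a tetraspanin of white blood cells, read 4.48 and 4.82 untreated and 3.16 and 3.64 treated, 1.25 ± 0.14 lower (adjusted p = 0.0286). Med4, a subunit of the Mediator complex, read 6.63 and 6.33 untreated and 5.60 and 5.00 treated, 1.18 ± 0.14 lower (adjusted p = 0.0378). Med4 has 2 probe sets, and these readings are of the brighter one alone. Over the alternative fits and uses of probe sets its estimate ranged from −1.32 to −0.67, so the size of its fall is uncertain. The day 4 difference was the larger one in 2 of the 5 genes.

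Feeder or fibroblast RNA moved with these results. The linear values of 29 fibroblast or feeder markers summed to between 5617 and 5678 on the untreated early arrays and to between 3274 and 3712 on the treated ones; Meox2, Omd and Tcf21 were below the limit for dim genes on all 4. Feeder cells and a fibroblast-like programme inside the pre-iPSCs would use the same markers, and in bulk RNA fewer cells of a type and less RNA per cell cannot be told apart. With the mean of these markers in the model in place of day, 0 genes passed in limma (0.0%), with 1561 at an unadjusted p of 0.05. On the early arrays this mean was 6.02 to 6.10 untreated and 5.55 to 5.56 treated, so it nearly followed the treatment. The fit therefore cannot separate the markers from vitamin C there. It also lacks day, and leaving day out alone left 5 calls. The estimate then was −0.40 for Lox, −0.21 for Cd53, 1.12 for Gpr179 and 0.95 for Slc27a2. It was −1.48 for P4ha2, −1.23 for Ifit1, 3.10 for Dppa5a and 2.81 for Morc1. None of them passed in that fit, so these values do not separate the genes. The part of feeder or fibroblast-like cells in the result was not tested. The sums of 12 blood cell markers lay between 377 and 415 untreated and between 368 and 376 treated, with Adgre1, Fcer1g and Lyz2 dim on all 4 arrays. Those of 12 endothelial markers were 278 to 288 and 307 to 330.

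**Figure D2:**
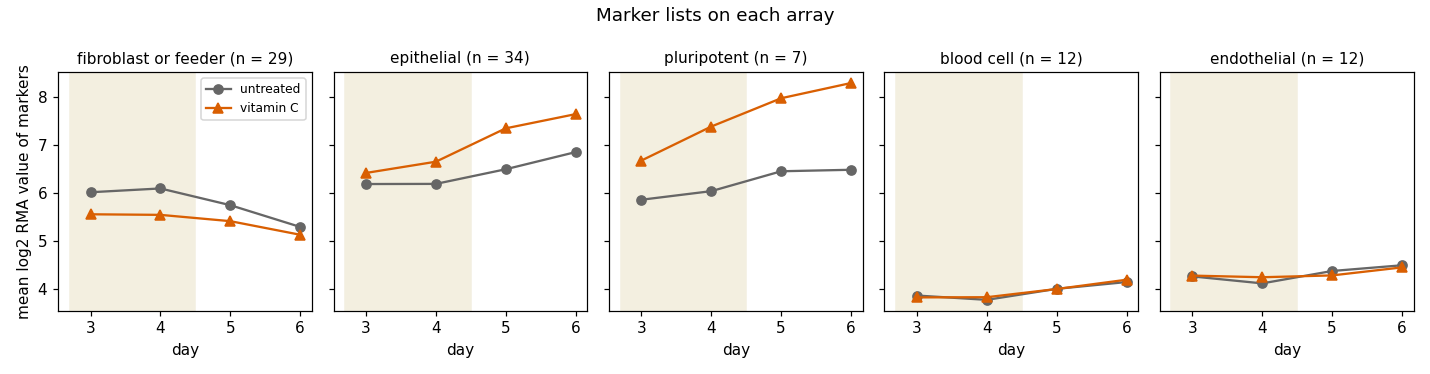
Mean log2 RMA value of 5 marker lists on each array by day, with grey circles for untreated cells, orange triangles for vitamin C and the number of markers in brackets. On days 3 and 4 the fibroblast or feeder markers lie lower and the pluripotent markers higher with vitamin C, while blood cell markers stay between 3.78 and 3.87 on all 4 early arrays.

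A count by size alone gave a similar set. On both days at least 2-fold apart in the same direction were 14 genes higher (0.0702% of all) and 12 lower (0.0602%), all of them with arrays of the treatments that did not overlap. Beyond the called genes these held Dmrtc1b, Clec2i and Hint3 among the higher, with mean differences of 2.08, 1.72 and 1.06, and Tubb3, Usp18, Acta2, Slit2, Lcn2, Cdh11 and Phldb2 among the lower, with −1.53, −1.51, −1.24, −1.23, −1.19, −1.14 and −1.07. Usp18 removes the ubiquitin-like Isg15, Acta2 is smooth muscle actin and Cdh11 is a cadherin of mesenchymal cells. None of these 10 passed the test. Vitamin C arrays lay above both untreated arrays in 22.2% of all genes and below both in 20.7%.

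The single days differed in how far they were borne out by each other. Of 74 genes at least 2-fold higher on day 3 (0.371%), 49 or 66.2% were also above 0 on day 4, where 50.3% of all genes were above 0. Of 60 at least 2-fold lower (0.301%), 43 or 71.7% were below 0 on day 4, against 49.6% of all genes. Day 4 had more such genes, 128 higher (0.642%) and 90 lower (0.451%), and of these 103 (80.5%) and 77 (85.6%) had the same direction on day 3. The differences of the 2 days share no array, and over all genes they correlated with 0.293, which is a description across genes that are not independent.

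**Figure D3:**
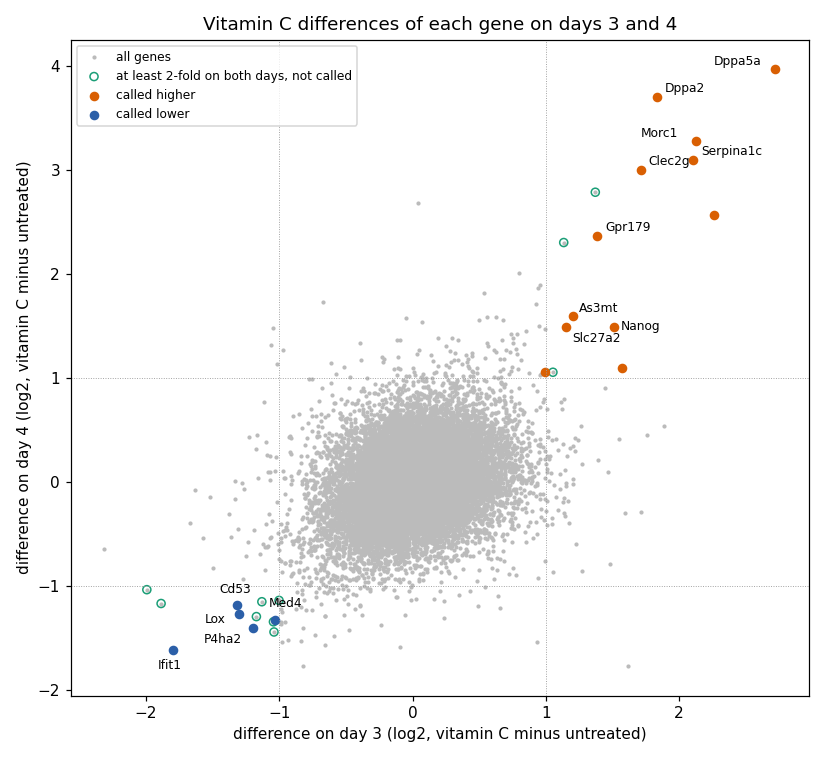
Log2 difference between vitamin C and untreated arrays of every gene on day 3 (horizontal) and day 4 (vertical), with called genes filled and dotted lines at 2-fold. The genes called higher fan out towards larger day 4 differences, up to 3.97 for Dppa5a, while the 5 genes called lower sit between −1.03 and −1.80 on day 3; the 3 called points without a name are Gm6083, Olfr248 and BC061237.

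Of the pluripotency network, 3 of 41 measured genes rose in the test (Dppa5a, Nanog and Dppa2) and none fell. Of all genes, 0.0602% rose and 0.0251% fell. Differences were above 0 on both days in 28 of the 41, where 30.8% of all genes were, and the median early difference was 0.35 against 0.02 over all genes. Esrrb, a nuclear receptor of naive pluripotency, read 3.23 and 3.14 untreated and 4.10 and 3.56 treated (0.65 ± 0.20), which did not pass. Zfp42, Dppa3 and Ooep, an oocyte protein, had values of 0.70, 0.53 and 1.23 and did not pass either. The 4 reprogramming factors, all uncalled, differed by −0.07 for Pou5f1, 0.64 for Sox2, 0.08 for Klf4 and −0.20 for Myc. As the vectors are not given, RNA from a vector and from the cells' own genes cannot be told apart in these readings. Klf4 and Sox2 had days of opposite sign, and in Klf4 both differences were small. Sox2 read 5.00 and 4.91 without and with vitamin C on day 3, and 4.93 and 6.30 on day 4, so that its difference of 1.37 stands on day 4 alone.

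Germline genes that DNA methylation is known to silence gave 1 call among 35, Morc1, with 15 above 0 on both days, 1 below and a median of 0.15. Piwil2, a Piwi protein of the germline, read 3.74 and 3.60 untreated and 4.67 and 5.32 treated (1.32 ± 0.19, limma adjusted p = 0.0745), and the homeobox genes Rhox9 and Rhox6, which are close copies, were at 1.07 and 1.18. These 3 did not pass. Of the 35 genes, 6 were higher at an unadjusted p of 0.05 and 28 had a mean difference above 0. Of all genes, 7.28% were higher at that p, and 10538 of 19938 had a mean difference above 0. On both days 30.8% of all genes were above 0 and 27.7% below, and 0.0602% were called higher. Placental genes (trophoblast list, 19 measured) had a median of 0.14 on days 3 and 4 and of 1.06 on days 5 and 6. None was called early, 4 were higher at an unadjusted p of 0.05 and 2 with the trend and robust fit. Of all genes, 7.28% and 0.662% were higher in the same order.

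Epithelial genes had a median of 0.36, with 25 of 34 above 0 on both days and 4 below. None passed in limma, 16 were higher at an unadjusted p of 0.05, and 2 were called in the 4-array fit and 8 with trend and robust. Of all genes, 30.8% were above 0 on both days and 27.7% below. Higher were 7.28% of all genes at an unadjusted p of 0.05, 0.256% in the 4-array fit and 0.662% with trend and robust. The values of Grhl2, a transcription factor of epithelia, were 4.07 and 4.21 untreated and 4.78 and 5.48 treated (0.99 ± 0.17). Rab25, a small GTPase of epithelial transport, read 6.28 and 6.35 against 7.07 and 7.43 (0.94 ± 0.15), and E-cadherin, Cdh1, 8.19 and 8.26 against 8.54 and 8.91 (0.50 ± 0.15). In each of these the treated arrays lay above the untreated ones, without a call.

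Mesenchymal genes had a median of −0.62 over the mean of both days, the lowest of the 26 lists on that measure but on neither single day, and 24 of 28 were below 0 on both days, where 27.7% of all genes were. None passed, 23 were lower at an unadjusted p of 0.05, and 4 and 15 were called lower in the 4-array fit and with trend and robust. Of all genes, 7.26%, 0.301% and 1.32% were lower in the same order. Zeb1, a repressor of epithelial genes, was at −0.80, and the filament protein Vim at −0.56. Contractile genes under serum response factor had a median of −0.59, with 15 of 18 below 0 on both days and 0 called (14 at an unadjusted p of 0.05, 6 in the 4-array fit, 7 with trend and robust). Acta2, the smooth muscle actin of this list, read 10.55 and 10.22 untreated and 9.51 and 8.78 treated, a difference of −1.24 ± 0.19. The fibroblast or feeder markers themselves were at −0.53, with 25 of 29 below 0 on both days and 0 called (21, 6 and 10 in the same order); Col1a1, a collagen chain, was at −0.78. Targets of the YAP coactivator had a median of −0.26, with 8 of 11 below 0 on both days and 0 called (4, 1 and 3). The sums of the feeder markers given above moved the same way as all these lists.

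Of the genes for hydroxylation and cross-linking of collagen, P4ha2 and Lox fell, 2 of 20. Of the 20, 17 were below 0 on both days, none above, and the median was −0.34. Among all genes 0.0251% were called lower, and 27.7% were below 0 on both days and 30.8% above. The fibroblast or feeder marker sums were lower on the same arrays. With the marker mean in the model Lox was at −0.40, P4ha2 at −1.48 and P4ha1 at −1.31, and none of them passed. That fit cannot separate the markers from vitamin C. P4ha1, the other main catalytic subunit of the prolyl hydroxylase, read 7.91 and 8.15 untreated and 7.00 and 7.25 treated (−0.91 ± 0.14, adjusted p = 0.0745). It did not pass, although its 2 daily differences, −0.91 and −0.90, were nearly equal. Plod1, a lysyl hydroxylase, was at −0.65. Histone and DNA dioxygenases, the other class of enzymes that use ascorbate, showed no call among 31 (1 higher and 1 lower at an unadjusted p of 0.05, and the same with trend and robust) and a median of −0.04; Tet1, which oxidises methylated DNA, was at 0.48. Hypoxia and glycolysis genes had a median of −0.14, with 18 of 32 below 0 on both days, 6 above and 0 called (1 higher and 10 lower at an unadjusted p of 0.05, 1 lower in the 4-array fit, 5 lower with trend and robust). Of all genes, 7.28% were higher and 7.26% lower at an unadjusted p of 0.05. In the 4-array fit 0.301% were lower, and with trend and robust 0.662% were higher and 1.32% lower.

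Interferon response genes gave 1 call among 29, Ifit1, and 16 were below 0 on both days against 5 above, with a median of −0.19. Of all genes, 0.0251% were called lower, and 27.7% were below 0 on both days and 30.8% above. At an unadjusted p of 0.05, 7 of the 29 were lower and 0 higher. In the 4-array fit 2 were lower and with trend and robust 3. Usp18 read 6.05 and 4.89 untreated and 4.05 and 3.86 treated (−1.51 ± 0.21, limma adjusted p = 0.0740). Its untreated level was itself lower on day 4, by about as much as the treatment difference on that day. Gbp3, a guanylate-binding protein, and the regulator Irf7 were at −0.70 and −0.60 and did not pass. Inflammatory genes had a median of −0.46, with 14 of 21 below 0 on both days and 0 called (12 lower at an unadjusted p of 0.05, 2 in the 4-array fit and 6 with trend and robust). Of all genes, 7.26%, 0.301% and 1.32% were lower in the same order. The cytokine Il6 had the smallest adjusted p that missed the threshold, 0.0600: it read 5.05 and 4.50 untreated and 4.07 and 2.96 treated (−1.26 ± 0.17). The sums of the fibroblast or feeder markers were lower on the treated arrays. With their mean in the limma model, Il6 was at −0.39 (adjusted p = 0.884) and Saa3, an acute phase protein, at −0.45 (adjusted p = 0.726). Usp18 was at −1.52 (adjusted p = 0.610). No gene passed in that fit, so these values do not separate the genes.

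**Figure D4:**
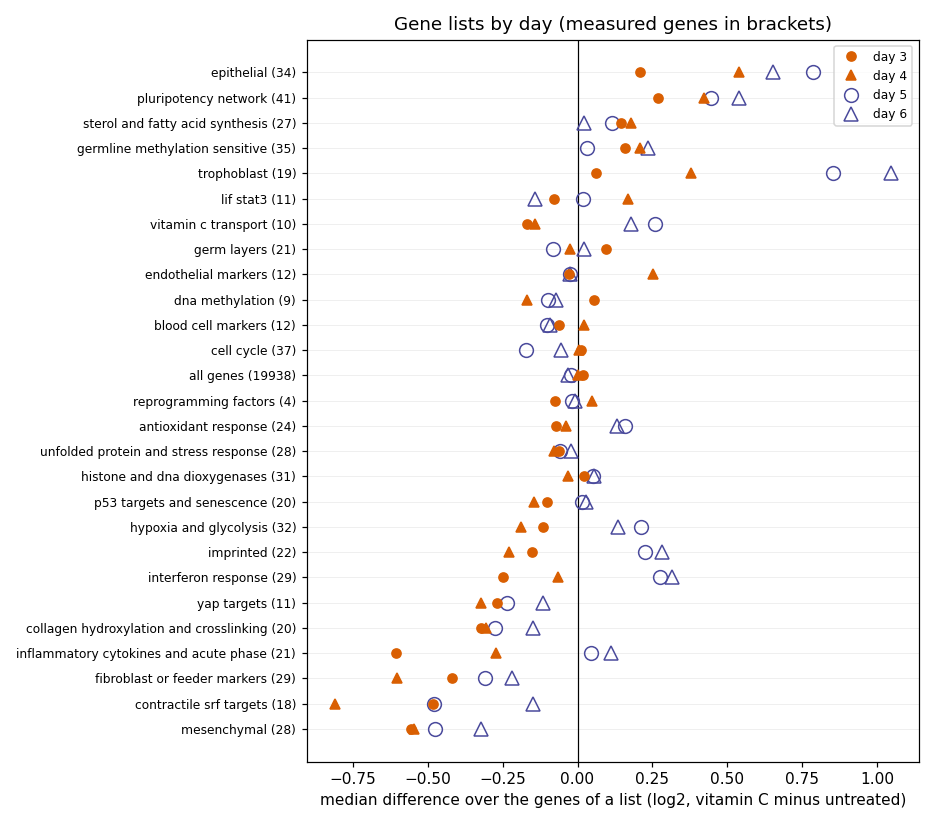
Median log2 difference between vitamin C and untreated arrays over the measured genes of each list, by day, with filled orange marks for days 3 and 4 and open marks for days 5 and 6. The inflammatory list lies lowest on day 3 (−0.61) and the contractile list on day 4 (−0.81), and the interferon, imprinted, hypoxia and inflammatory lists lie below 0 on both early days and above 0 on both later ones.

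The lists of housekeeping, stress and lineage genes gave no call. Genes of sterol and fatty acid synthesis were above 0 on both days in 18 of 27 cases with a median of 0.18, and imprinted genes were below 0 on both days in 12 of 22 with a median of −0.17. Cell cycle genes (37, median 0.03), germ layer genes (21, median 0.07), LIF and Stat3 genes (11, median 0.09), DNA methylation genes (9, median 0.04), antioxidant genes (24, median −0.02), genes of the unfolded protein response (28, median −0.04) and p53 targets (20, median −0.09) lay near the median of all genes. Of the 199 members of the 9 lists named here, 9 were higher and 25 lower at an unadjusted p of 0.05. Of all genes, 7.28% were higher and 7.26% lower. In the 4-array fit 1 member passed and with trend and robust 7, all of these lower, where 0.301% and 1.32% of all genes were lower. Of the 20 p53 targets, 11 were below 0 on both days and 2 above, where 27.7% and 30.8% of all genes were. At an unadjusted p of 0.05, 5 p53 targets were lower and 0 higher. Slc23a1, a sodium-dependent transporter of vitamin C, read 4.04 and 3.66 without and with vitamin C on day 3 and 3.70 and 4.87 on day 4, so its days pointed in opposite directions.

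The called genes parted on the later days. Of the 12 called higher, 11 had the same direction on days 5 and 6, 9 were at least 2-fold higher on both and 10 were called in the late comparison, in which 451 genes passed (2.26%), 352 higher (1.77%) and 99 lower (0.497%). Of all genes, 0.662% were at least 2-fold higher and 0.0702% at least 2-fold lower on both later days. On day 6 Dppa5a stood at 11.03 with and 7.59 without vitamin C, and Nanog at 8.87 and 6.77. Serpina1c went the other way, with a difference that was 3.10 on day 4, 2.20 on day 5 and 1.11 on day 6. Of the 5 called lower, 3 kept their direction on both later days, none was 2-fold lower on both, and Lox alone was called late (−1.03 ± 0.15, adjusted p = 0.0146).

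The other lower genes lost their difference in unlike ways. Ifit1 read 3.28 and 2.84 without vitamin C on days 5 and 6, below its untreated early values of 5.83 and 5.01, and 3.63 and 3.15 with it. P4ha2 read 5.55 and 5.60 untreated and 5.22 and 5.51 treated on those days, and Med4 6.18 and 5.89 against 6.20 and 5.90. From the early to the late mean, P4ha2 differed by −0.47 untreated and 0.61 treated, Med4 by −0.44 and 0.75, and Cd53 by −0.80 and 0.25, while Ifit1 differed by −2.36 and −0.32. Late differences were 0.33 ± 0.14 for Ifit1, −0.21 ± 0.14 for P4ha2 and 0.01 ± 0.14 for Med4. The test of late minus early called 0 genes in limma (0.0%), with 2560 at an unadjusted p of 0.05 (12.8%) and 183 with trend and robust (0.918%). Ifit1 came nearest, with a change of 2.04 ± 0.19 between periods (adjusted p = 0.0754).

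The larger set of the 4-array fit had the same shape. Of its 51 higher genes 41 (80.4%) were above 0 on both later days, where 26.9% of all genes were, and 25 were at least 2-fold higher. Of its 60 lower genes 27 (45.0%) were below 0 on both, where 35.8% of all genes were, and 2 were at least 2-fold lower. Their medians were 1.07 early and 1.20 late for the higher genes, and −1.0 and −0.22 for the lower ones. Early and late differences share no array, but a set chosen for its early size is biased towards large early values.

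**Figure D5:**
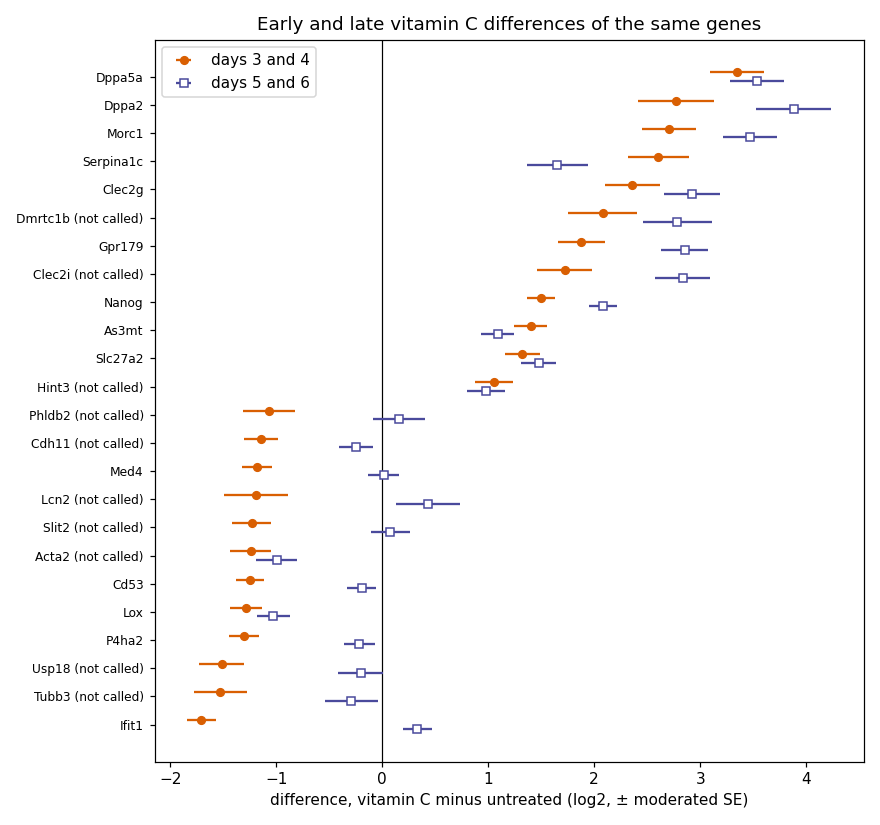
Log2 difference between vitamin C and untreated arrays (± moderated SE) over days 3 and 4 (filled circles) and days 5 and 6 (open squares) for the 24 named genes that were called or at least 2-fold apart on both early days. The higher genes keep late differences of 0.98 to 3.88, while of the lower ones Lox and Acta2 alone stay near −1.

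Some of the called genes were neighbours. Neighbours were taken in RefSeq's gene order (GRCm38.p6) among the genes tested here, so untested genes between them are skipped. In this order Dppa2 and Morc1 lie next to each other on chromosome 16. Dppa4, the partner of Dppa2, is on the other side of Dppa2 at a difference of 0.48. Ooep and Omt2b, at 1.23 and 0.99, flank Dppa5a on chromosome 9, and Clec2i is next to Clec2g on chromosome 6. None of these neighbours other than Morc1 and Dppa2 passed. Dppa3 and Gdf3 beside Nanog were at 0.53 and 0.64, but Slc2a3, on its other side, was at −0.17. Near Ifit1 on chromosome 19, Ifit3 and Ifit3b were at −0.74 and −1.48. These genes are close copies, and Ifit3 read 4.53 and 3.20 without and with vitamin C on day 3 but 3.48 and 3.32 on day 4. Ifit1bl2 and Slc16a12, next to Ifit1 in this order, were at −0.175 and 0.22. Taking 3 neighbours on each side of the named called or 2-fold genes, 15 of 144 pairs had a neighbour at least 0.5 the same way. In 54 pairs the neighbour differed the same way on both days. Of all genes, 30.8% were above 0 and 27.7% below 0 on both days. Pairs such as Dppa2 with Morc1 count once from each side. The share of all genes at least 0.5 apart was not computed, and a regional effect was not tested.

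RefSeq promoters (GRCm38.p6) were matched for 11 of the 17 called genes, and motifs were searched on both strands in the 250 bases before the start. Those of 2 interferon genes are shown with the core of the interferon-stimulated response element (GAAA, any 2 bases, GAAA) in capitals, in its reverse form. In Ifit1 (chr19:34640639-34640888, plus strand) 94 and 75 bases lie between a match and the start, and in Ifit3 (chr19:34583279-34583528, plus strand) 146 and 112.
Ifit1: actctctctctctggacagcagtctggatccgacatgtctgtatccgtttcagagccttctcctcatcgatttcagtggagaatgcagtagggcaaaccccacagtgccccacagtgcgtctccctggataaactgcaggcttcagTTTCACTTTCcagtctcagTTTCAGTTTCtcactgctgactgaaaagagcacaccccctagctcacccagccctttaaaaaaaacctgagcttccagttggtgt
Ifit3: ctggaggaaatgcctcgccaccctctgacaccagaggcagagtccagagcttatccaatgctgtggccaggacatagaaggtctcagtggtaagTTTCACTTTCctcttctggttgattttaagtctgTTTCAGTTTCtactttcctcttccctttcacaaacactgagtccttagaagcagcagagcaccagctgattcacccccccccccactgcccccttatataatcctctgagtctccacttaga
The motif was found in 8 of 19 interferon genes with a promoter and in 2.98% of all 32851 promoters. A match is a description of the letters and not evidence of binding.

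Promoters of the genes that rose were also read for CpG, the dinucleotide that DNA methylation marks. Of the 7 called-higher genes with a promoter, 6 had at most 4 CpG in the window, as did 44.4% of all promoters, whose median was 6. Gpr179 (chr11:97352357-97352606, minus strand, 2 CpG) and Clec2g (chr6:128934131-128934380, plus strand, 4 CpG) are shown with CpG in capitals. Of the 4 called-lower genes with a promoter, 2 also had at most 4 CpG, so this count did not separate the directions. P4ha2 (chr11:54100674-54100923, plus strand), with 21 CpG the richest of them, is shown with its single ACGTG, the core of the hypoxia response element, in capitals.
Gpr179: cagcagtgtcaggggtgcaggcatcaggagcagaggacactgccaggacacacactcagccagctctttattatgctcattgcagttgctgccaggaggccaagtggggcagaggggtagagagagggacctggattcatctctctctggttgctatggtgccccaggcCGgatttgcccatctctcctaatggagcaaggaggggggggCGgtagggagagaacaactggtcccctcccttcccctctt
Clec2g: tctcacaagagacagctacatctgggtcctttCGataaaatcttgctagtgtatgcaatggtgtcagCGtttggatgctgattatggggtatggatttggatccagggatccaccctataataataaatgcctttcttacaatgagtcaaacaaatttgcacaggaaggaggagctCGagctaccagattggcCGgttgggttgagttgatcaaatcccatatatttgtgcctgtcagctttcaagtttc
P4ha2: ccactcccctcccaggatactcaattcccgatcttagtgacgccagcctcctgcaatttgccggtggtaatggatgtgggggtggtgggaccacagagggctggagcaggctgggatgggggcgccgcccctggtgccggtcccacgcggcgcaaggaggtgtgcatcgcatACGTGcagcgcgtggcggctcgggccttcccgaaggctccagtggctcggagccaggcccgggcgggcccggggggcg
ACGTG was in 16 of 28 hypoxia and glycolysis promoters and in 16.6% of all. Over the other lists, CACCTG, an E-box bound by Zeb and Snai repressors, was in 14 of 19 epithelial genes (17.2% of all promoters), GGAATG, the TEAD motif, in 6 of 8 YAP targets (12.6%) and the CArG box of serum response factor in 5 of 14 contractile genes (1.47%). These lists were drawn up from known targets, so the shares describe the lists and not the response.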

How the data were processed

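The deposited table held values for 28853 probe sets on 8 Affymetrix arrays, which the authors computed in Partek by RMA (per the submitters' processing notes). Its unit was taken as log2 because the deposited maximum, 13.8, lay between the natural log (11.1) and the log2 (16.0) of the largest 16-bit reading. The sources used here state no genome build for the array and no RMA options. The number of arrays, not depth, limits the precision. A table of the platform's annotation gave 21789 probe sets 1 symbol and 1621 several, and the 5443 it does not list are unnamed here. The probe set with the highest mean stood for each of 19938 genes.

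limma 3.58.1 in R 4.3.3 (lmFit, eBayes) was fitted to all 8 arrays with day as a factor and a vitamin C term per period, leaving 2 residual and 6.43 prior degrees of freedom. Tests were two-sided with Benjamini-Hochberg adjustment over all genes and a threshold of 0.05, and were checked on simulated data. With spreads drawn from the model the share of false calls was near the nominal one, and with the spreads fitted to these genes it was above it. The simulated noise was independent between genes and arrays, so the check does not cover correlated genes or arrays that share a culture. The 2 arrays of a day were paired because the labels make day a factor of the design. Tables and plots were made with Python 3.11.15, pandas 2.3.3 and matplotlib 3.10.9.

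The genes, the 26 lists (563 measured genes, 22 in several lists) and the tests were chosen with earlier results of these data known. Named were, by rule, called genes (up to 15 per direction), then up to 12 genes at least 2-fold apart on both days, the 5 most extreme late minus early, up to 4 members per list by smallest p, and a set of marker genes. Olfactory receptors and genes with predicted or clone names were only counted, except 3 named as chosen afterwards. Neighbours in gene order and a few other list members were also named to complete a description. Alternatives changed the arrays in the fit, day, normalization, the filter on dim genes (the lowest 25% by mean), probe sets per gene, eBayes options and thresholds, and left out days.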

Additional observations from a re-analysis of the deposited data

Results flagged for a closer look

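In 8 lists the median difference between vitamin C and untreated arrays had one sign on both early days and the other on both later days. The difference between the periods was not tested for any of them, no list has a test here, and with 2 days in a period such a pattern has little weight where the medians are small. On days 3, 4, 5 and 6 the medians of the inflammatory genes were −0.607, −0.271, 0.0435 and 0.113. Those of the interferon response genes were −0.249, −0.0653, 0.274 and 0.315. Imprinted genes had −0.15, −0.23, 0.23 and 0.28, and hypoxia and glycolysis genes −0.11, −0.19, 0.21 and 0.14. The genes of vitamin C transport had −0.17, −0.14, 0.26 and 0.18; there the median over genes of the mean of days 3 and 4 was 0.07, opposite in sign to either day's median. Antioxidant genes had −0.0718, −0.037, 0.159 and 0.132, p53 targets −0.102, −0.145, 0.0149 and 0.0288, and cell cycle genes 0.0128, 0.00633, −0.17 and −0.0544. Groups of 2 arrays are too small to look for single arrays that stand apart.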

How the results depend on the processing

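The early count of 17 was 111 in the 4 early arrays, 5 with no replicate block (day left out of the model), 0 with the marker mean in place of day, 10 after quantile normalization again, 395 with trend and robust, 108 at an adjusted p of 0.10 and 3 at 0.01. Leaving out a day gave 0 to 111; without day 5 or day 6 the late term takes up the remaining late arrays and the fit equals that of the 4 early arrays. Median centring, the filter on dim genes and other uses of probe sets gave 14 to 16. The late count of 451 was 216 with no replicate block, 0 with the marker mean, 922 with trend and robust, 788 at 0.10, 95 at 0.01 and 89 (without day 6) to 399 without a day. Late minus early, 0 genes, was 1 without the dimmest genes, 183 with trend and robust, 1 at 0.10 and 0 to 31 (without day 5) without a day. The 26 genes 2-fold apart on both days were 273 at 1.5-fold and 7 at 3-fold, and 24 to 26 in the other alternatives. Of 1684 alternatives for 130 genes, 1485 kept the side of the threshold, 71 lost a call, 128 gained one and 0 called values reversed; 23 had the opposite sign, in 21 genes that were not called. Of 156 alternatives for list medians, 33 moved beyond the spread of the days and 14 changed sign, in 10 lists whose medians were all within 0.10 of 0. The alternative that takes logarithms was not run, since the values already are logarithms. The cause of these changes was not tested. No array has a replicate of the same day.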

Other observations

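Among the largest changes between the periods, none of them called, were genes outside the early calls, beside Ifit1 upwards and Olfr248 downwards (1.33 early and −0.26 late). Slc23a1, the sodium-dependent vitamin C transporter, had a difference of 0.40 early and 2.61 late. Asprv1, a protease of the epidermis, had 1.03 and 3.10, the amino acid transporter Slc38a4 −0.20 and 1.95, and the adhesion receptor Adgrl2 −0.70 and 1.33. In the other direction Ooep had 1.23 early and −0.04 late, the methyltransferase Inmt 1.08 and −0.48, Bhmt, another methyltransferase, 0.85 and −0.54, and the trefoil peptide Tff2 0.14 and −1.20. Over the 8 arrays Inmt read 2.11 to 3.44 and Bhmt 2.35 to 3.95, around the limit of 3.19 for dim genes. The differences of Inmt and Bhmt therefore rest on readings in or near the dim range. These genes are the extremes of many, and the late minus early comparison had no call in the limma fit with all 8 arrays.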
